A study of Mus musculus with 22 samples.

Results

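The mRNAs and ribosome footprints described here are those that moved with 4-hydroxytamoxifen (4-OHT) in mouse neural stem cells (NSCs) in which the drug turns on Cre. The rule for calling a gene asked for a change under 1.5-fold in floxed cells without Cre, and some called genes moved there in the same direction. The values come from 8 of the 22 samples of the series, 4 RNA-Seq and 4 Ribo-Seq libraries. These were chosen because they are the C1 and C4 libraries with and without 4-OHT. Both lines were grown from the cortex of mouse embryos of E12.5, in medium with growth factors and laminin. C1 and C4 cells are both floxed at Msi1 and Msi2. C4 cells also carry a tamoxifen-inducible Cre, and C1 cells lack it and serve as the control for the drug. Treated cells were sampled at 48 h of 4-OHT, and the labels give the same time point for the untreated cells. The dose, the promoter that drives Cre and the exons flanked by loxP sites were not given in the sources used here. There was 1 line with Cre and 1 without, and 1 library for each line, treatment and assay, so line and Cre cannot be told apart and no test among samples was possible. All values below are measurements with 95% intervals for counting error only, and PCR reads without molecular identifiers are not independent molecules.

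Msi1 and Msi2 are closely related RNA-binding proteins of stem and progenitor cells. They recognise short sequences around UAG, mostly in 3′ UTRs, and are known for changing how well their target mRNAs are translated. In the developing brain both are high in NSCs, and one classical target is Numb, an inhibitor of Notch signalling. Notch itself keeps these cells undifferentiated. Jag1 encodes one of the ligands that activate it.

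Each gene was given a change with 4-OHT in C1 cells and one in C4 cells, as log2 ratios of CPM (counts scaled to the library's total) after 0.5 CPM was added, with the median gene of each pair set to 0. The difference between lines is the C4 change minus the C1 change. A gene was called C4-specific where that difference was at least 1.5-fold in mRNA (2-fold in footprints and in translation efficiency) with an interval leaving out 0. In addition, its change in C4 cells had to be as large and in the same direction, and its change in C1 cells under 1.5-fold. Total counts were 45750593 to 58435172 in RNA-Seq. In Ribo-Seq they were 6381242 in untreated and 2286367 in treated C1 cells, and 1865120 and 1675192 in C4 cells. The median counting error of a difference was 0.07 in mRNA and 0.25 in footprints (log2). The spread of changes over genes was larger in C4 than in C1 cells in mRNA (SD 0.31 and 0.20), but about the same in footprints (SD 0.51 and 0.50). A change in mRNA of at least 1.5-fold was found in 801 genes (6.93%) of the C4 pair, 235 genes (2.03%) of the C1 pair and 81 of 11476 genes (0.706%) of the only technical replicate pair in the series, untreated tetO-Msi1 cells of E13.5. Of the footprint changes of at least 3 on the log2 scale, 16 were rises in C1 cells, against 1 rise and 2 falls in C4 cells.

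Msi2 fell to a small part of its level in C4 cells given 4-OHT. Its gene (ENSMUSG00000069769) lies on the minus strand of chromosome 11 from 88152884 to 88579827 in NCBIM37 (mm9). In mRNA it was at 17.6 CPM in C1 cells without and 22.6 CPM with 4-OHT, and at 13.8 CPM in C4 cells without and 1.49 CPM with 4-OHT. Only the treated C4 library was low. The difference between lines was -3.18 (interval -3.46 to -2.90), or 9.07-fold lower. Footprints gave 451 and 190 reads in C1 cells, and 117 and 5 reads in C4 cells (70.7, 83.1, 62.7 and 2.98 CPM). Their difference was -4.41 (interval -5.55 to -3.27), or 21.3-fold lower.

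Msi1 (ENSMUSG00000054256, chromosome 5, plus strand, 115879608 to 115905707) behaved differently in the assays. Its mRNA was at 43.7 and 37.6 CPM in C1 cells without and with 4-OHT, and at 15.6 and 14.6 CPM in C4 cells. The C4 libraries were thus low before treatment (-1.45 against C1 cells on the log2 scale), and the difference in response was 0.14 (interval -0.02 to 0.30). Footprints on Msi1 fell, from 56 reads (30 CPM) to 20 reads (11.9 CPM) in C4 cells, against 424 reads (66.4 CPM) and 135 reads (59.0 CPM) in C1 cells. This gave a difference of -1.13 (interval -1.89 to -0.36). RNA reads were counted over 529 nt of Msi1 and 112 nt of Msi2, and whether these lie in the deleted exons was not tested. On the deposited RPKM the Msi1 footprint difference was -0.84, under the 2-fold limit. Wherever a difference on RPKM is given, 0.5 RPKM was added before the logarithm, which shrinks changes of genes with a low RPKM. A loss beyond the response of C1 cells was therefore called for Msi2 in both assays. For Msi1 it was called in footprints on CPM, also with 0.1 CPM (-1.15) or 2 CPM (-1.03) added, but not on RPKM with 0.5 added.

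In mRNA, 120 of 11551 genes tested were C4-specific and higher with 4-OHT (1.04%) and 175 were lower (1.52%). These are 295 of the 532 genes whose difference passed the limits. Of the others, 20 of the higher and 13 of the lower differences had an opposite move of at least 1.5-fold in C1 cells. Their C4 change stayed under 1.5-fold in the direction of the difference. A further 96 and 85 had a move under 1.5-fold in each line. In footprints, 68 of 5875 genes were C4-specific and higher (1.16%) and 66 were lower (1.12%). In 74 of the 225 higher and 131 of the 269 lower footprint differences, C1 cells had an opposite move of at least 1.5-fold. The C4 change of these genes stayed under 2-fold in the direction of the difference. That C4 limit is wider than the 1.5-fold used in mRNA, so these counts are not directly comparable with those of mRNA. Without the centring of each pair on its median gene, 50 were higher and 87 lower in footprints. In the plot of C4 against C1 changes, Msi2 lies apart from all other genes in mRNA.

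**Figure D1:**
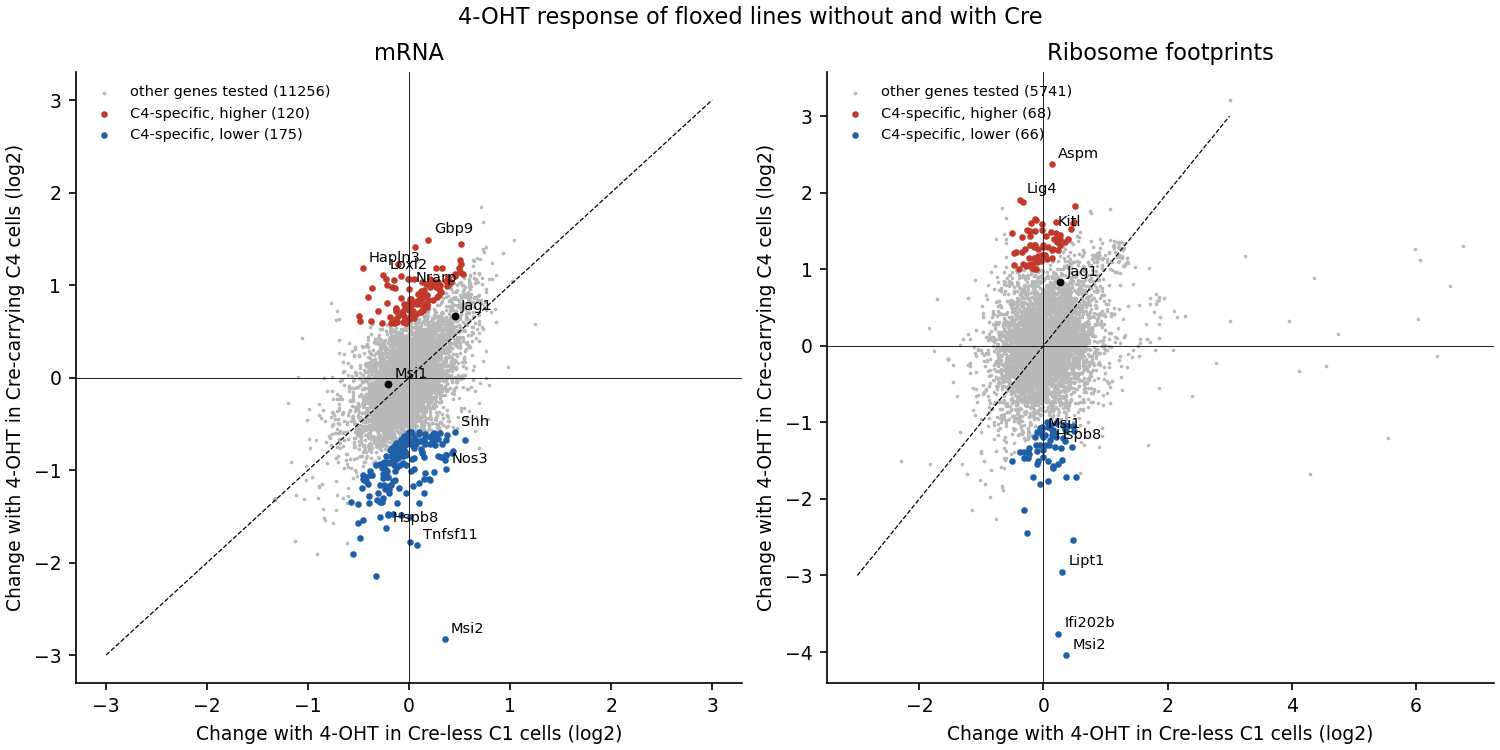
Change with 4-OHT (log2, centred on the median gene) in Cre-carrying C4 cells against that in Cre-less C1 cells, for mRNA (left, 11551 genes) and ribosome footprints (right, 5875 genes). Coloured points are C4-specific genes, 120 higher and 175 lower in mRNA and 68 higher and 66 lower in footprints, black points are Msi1 and Jag1 where they are not C4-specific, and the dashed line marks equal changes; Msi2 is the lowest point in both panels, and far changes in footprints lie mostly along the C1 axis, and Ifi202b, at 0 footprint reads in treated C4 cells, is placed by the 0.5 CPM added.

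Some of the largest rises in mRNA were of matrix proteins or of an enzyme that acts on them. In the list of 50 matrix genes described below, 2 were C4-specific and higher and 4 lower, against 1.04% and 1.52% of all genes. Hapln3, a link protein that joins hyaluronan to proteoglycans, was at 1.39 and 0.873 CPM in C1 cells without and with 4-OHT and at 0.415 and 1.56 CPM in C4 cells. Its difference of 1.64 (interval 1.13 to 2.15) was the largest rise at 0.5 CPM added, and it rested in part on the low untreated C4 library (19 reads). It was 0.97 on RPKM, below Dcxr (1.35), Ifitm2 (1.20) and Loxl2 (1.12), and 0.81 and not called with 2 CPM added. Loxl2, an enzyme that cross-links collagen and elastin, was at 6.26 and 5.14 CPM in C1 cells and at 7.41 and 16.4 CPM in C4 cells, a difference of 1.37 (interval 1.10 to 1.64). Here the treated C4 library alone stood above the other 3. Frem1, a basement membrane protein, did the same (5.48, 3.99, 6.45 and 12.1 CPM in the same order, difference 1.28), but was not called on RPKM (0.64).

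Ifitm2, a membrane protein that interferon induces, rose from 6.88 to 14.7 CPM in C4 cells, with 6.99 and 6.25 CPM in C1 cells (difference 1.20, interval 0.93 to 1.46). Gbp9, of the interferon-induced guanylate-binding proteins, had a difference of 1.30 and was low in untreated C4 cells (0.93, 1.13, 0.284 and 1.68 CPM). Klk10, a secreted serine protease, rose from 3.39 to 7.55 CPM (difference 1.29), and Svop, a synaptic vesicle transporter-like protein, from 4.09 to 9.26 CPM (1.18). In both, the C1 libraries and the untreated C4 library lay together and the treated C4 library above them. The other large rises were 4930583H14Rik (1.36), Dcxr (1.34), Thrsp (1.34), Rab3b (1.22) and Chchd10 (1.16). Thrsp, a regulator of fat synthesis in other tissues, and Rab3b, a small GTPase of exocytosis, had C4 levels below those of C1 cells before treatment (0.503 and 1.97 CPM, against 1.28 and 5.28 CPM).

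The largest fall after Msi2 was that of Tnfsf11, the ligand of RANK, which was at 1.12 and 1.21 CPM in C1 cells without and with 4-OHT and at 2.49 and 0.342 CPM in C4 cells, a difference of -1.89 (interval -2.38 to -1.40). Tgfbi, a matrix protein induced by TGF-beta, was at 9.07 and 7.12 CPM in C1 cells and at 16.0 and 3.17 CPM in C4 cells (-1.82, interval -2.10 to -1.55). Both were highest in untreated and lowest in treated C4 cells, with the C1 libraries between.

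Trim71, an RNA-binding ubiquitin ligase of early progenitors, was at 1.91, 2.28 and 1.53 CPM in the first 3 libraries (both C1 libraries and untreated C4 cells) and 0.428 CPM in treated C4 cells (difference -1.32, interval -1.80 to -0.85), but was not called on RPKM (-0.49). Irs4, an adaptor of insulin signalling (-1.41), Ecel1, a membrane metallopeptidase (-1.40), A930005I04Rik (-1.46) and Nos3, a nitric oxide synthase (-1.36), also fell. So did ENSMUSG00000075472 (-1.79), for which no symbol or position was found in the tables used.

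The genes called C4-specific in both assays in the same direction numbered 3 higher (Kitl, Dlgap5 and Rfx4) and 7 lower, among them Msi2, Hspb8, Otud1, Vgf, Gfap and Naaa. Vgf encodes the precursor of secreted neuropeptides (chromosome 5, 137506165 to 137509221). Its mRNA was at 1374 and 1192 CPM in C1 cells and at 1358 and 582 CPM in C4 cells, so the lines started alike and only treated C4 cells were low. The differences were -1.0 in mRNA and -1.39 in footprints (intervals -1.03 to -0.98 and -1.55 to -1.23). Otud1, a deubiquitinase (chromosome 2, 19579689 to 19582217), showed the same pattern, with 62.8, 61.1, 50.8 and 20.8 CPM in mRNA and 30.1, 32.4, 27.9 and 8.36 CPM in footprints. Its differences were -1.22 and -1.78, and on RPKM the footprints (-1.25) were not called.

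Hspb8, a small heat shock protein (chromosome 5, 116858500 to 116872873), began higher in C4 than in C1 cells. Its mRNA was at 58.2, 49.5, 120.4 and 38.1 CPM and its footprints at 41.7, 40.2, 83.1 and 30.4 CPM. The differences of -1.40 and -1.38 left treated C4 cells below treated C1 cells (-0.35 and -0.28 on the log2 scale). Gfap, the intermediate filament of astrocytes (chromosome 11, 102748650 to 102762226), fell without reaching the C1 level. It was at 163 and 153 CPM in C1 mRNA and at 416 and 214 CPM in C4 mRNA, and the treated C4 library stayed above both C1 libraries in both assays. The differences were -0.86 and -1.45. Naaa, a lysosomal hydrolase (chromosome 5, 92686686 to 92707196), fell from 28.6 to 13.2 CPM in mRNA and from 47.2 to 11.9 CPM in footprints. In C1 cells it was at 16.2 and 11.9 CPM in mRNA and at 18.0 and 15.8 CPM in footprints.

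Of the genes higher in both assays, Kitl, the ligand of the Kit receptor (chromosome 10, 99478264 to 99563047), was at 9.67, 11.2, 8.81 and 17.7 CPM in mRNA and at 31.3, 31.1, 17.2 and 44.2 CPM in footprints. Treated C4 cells were highest in both, with differences of 0.77 (interval 0.55 to 1.00) and 1.35 (interval 0.65 to 2.05). Rfx4, a transcription factor of the developing neural tube (chromosome 10, 84218807 to 84369283), had differences of 0.60 and 1.44, from 43.7 to 73.7 CPM in C4 mRNA against 56.9 and 63.7 CPM in C1 mRNA. Dlgap5, a protein of the mitotic spindle (chromosome 14, 48007454 to 48038082), had differences of 0.64 and 1.11. Its mRNA was also higher with 4-OHT in C1 cells (21.2 and 30.1 CPM), by less than in C4 cells (15.0 and 33.3 CPM). On RPKM its footprint difference was 0.60 and not called, and Rfx4 mRNA was not called with 2 CPM added (0.58).

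**Figure D2:**
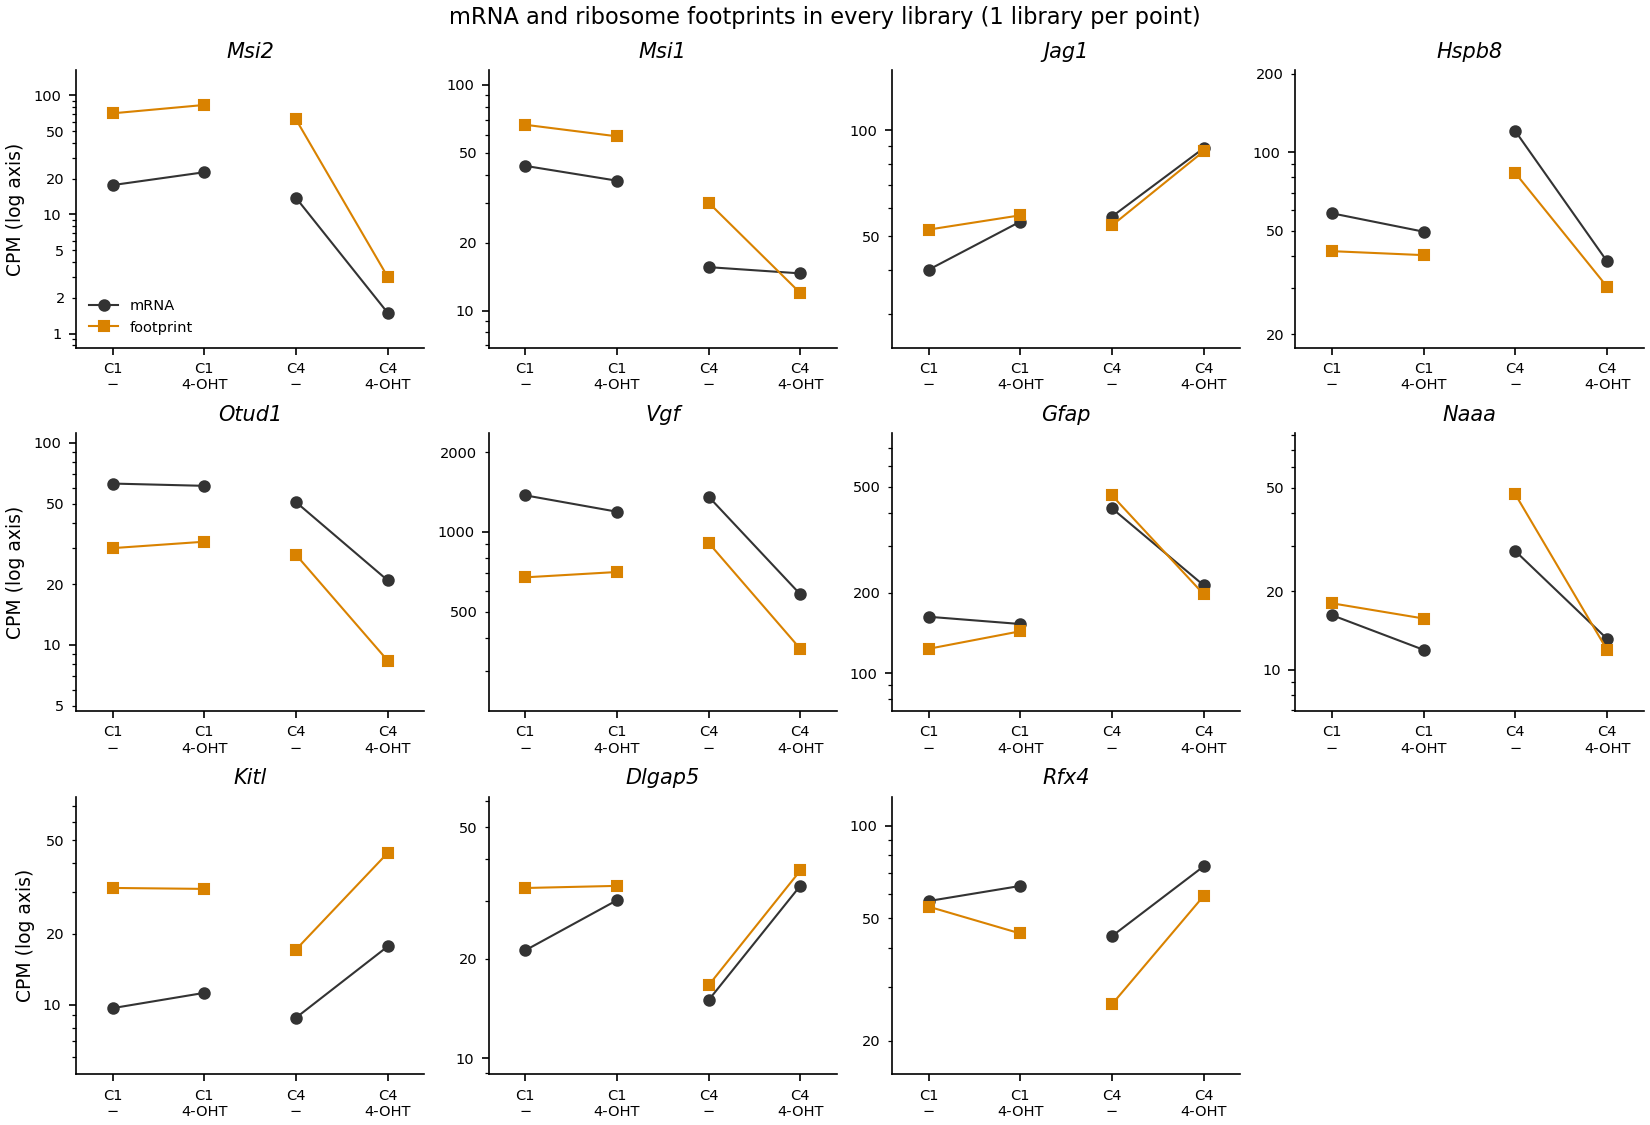
CPM in mRNA (circles) and ribosome footprints (squares) on a log axis in C1 and C4 cells without (−) and with 4-OHT, 1 library per point, for Msi1, Jag1, and Msi2 and 8 more of the genes that were C4-specific in both assays. Lines join the treated and untreated libraries of a line; Otud1 and Vgf are lowest in treated C4 cells in both assays, while Gfap stays above its C1 levels.

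In footprints, several of the largest rises were of genes low in untreated C4 cells. Lig4, the ligase that seals DNA ends in non-homologous joining, was at 29.0 and 20.1 CPM in C1 cells without and with 4-OHT, and at 8.04 and 28.7 CPM in C4 cells (185, 46, 15 and 48 reads). Its difference was 2.29 (interval 1.37 to 3.20), with -0.05 in mRNA. The library that stood apart was that of untreated C4 cells. Tbc1d5, a regulator of Rab7 (28.5, 20.6, 7.51 and 26.3 CPM, 2.20), had the same pattern.

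Aspm, a spindle pole protein needed for the size of the cortex, was at 33.4 and 33.2 CPM in C1 footprints and at 10.2 and 49.5 CPM in C4 footprints, a difference of 2.23 (interval 1.45 to 3.02). Its mRNA difference was 0.58, just under the limit of 1.5-fold. On the deposited RPKM with 0.5 RPKM added, the footprint difference was 0.52 for Aspm and 0.98 for Lig4, and neither was called. Plekhb1 (1.96), Rnd2, a small GTPase of migrating neurons (1.81), Pde6d (1.78), Tmed5 (1.78) and Rnf122 (1.77) completed the largest rises. Plekhb1 was not called without centring. In Rnf122, a ubiquitin ligase, the treated C4 library was the one that stood apart (15.8, 13.1, 20.9 and 60.3 CPM).

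The largest footprint falls after Msi2 included Lipt1, a lipoyltransferase of mitochondria, at 23.8 and 26.7 CPM in C1 cells and at 49.3 and 5.37 CPM in C4 cells. The difference was -3.24 (interval -4.25 to -2.24), on 92 and 9 reads in C4 cells, while its mRNA differed by 0.30. Ifi202b, an interferon-activated nuclear protein, had 1153 and 444 reads in C1 cells but 13 and 0 in C4 cells, so its CPM fell at least 3.54-fold in C4 cells, taking a floor of 3 reads for the library at 0. On RPKM it was not called. Its mRNA was nearly absent from C4 cells also without 4-OHT (51 reads, against 9476 in C1 cells). Zdhhc18, a palmitoyltransferase (-3.01), Ppt2, a lysosomal thioesterase (-2.24), Fosl1, a partner of Jun (-2.19), Frs2, an adaptor of FGF receptors (-2.08), and Rbfox2, a splicing regulator (-1.84), followed. Rbfox2 was at 32.0, 30.6 and 46.1 CPM in the first 3 libraries and at 11.9 CPM in treated C4 cells, with an mRNA difference of 0.04.

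Translation efficiency (TE), the footprint change less the mRNA change, was C4-specific and higher in 55 of 5220 genes (1.05%) and lower in 46 (0.881%). Without centring the numbers were 32 and 65. The rises of Lig4 (2.34), Plekhb1 (2.25), B3gnt5 (2.23), Tbc1d5 (2.23) and Pde6d (2.09) were the largest, and among the falls were Lipt1 (-3.54), Ppt2 (-2.31), Frs2 (-2.0) and Nhs (-1.94). These 9 had an mRNA difference between -0.31 and 0.30, so footprints carried them. Each rested on a C4 footprint library of 9 to 35 reads. Ifi202b was also called lower, but with 0 footprint reads in treated C4 cells its TE has no fixed size (-2.11 with 2 CPM added, -5.41 with 0.1 CPM and -0.62, not called, on RPKM). On RPKM, Lig4 (1.03), Lipt1 (-2.12), Frs2 (-1.38) and Nhs (-1.68) were no longer called either. Without centring, the TE of Lig4, Plekhb1 and Tbc1d5 was not called. That of Tbc1d5, with a C1 change of -0.58, was also lost with TMM or DESeq2 scaling and with 0.1 CPM added. B3gnt5, a glycosyltransferase, had 12 reads in untreated C4 cells, and Frs2 had 14 in treated ones.

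Jag1 (ENSMUSG00000027276, chromosome 2, minus strand, 136907192 to 136942380) is the Notch ligand that the study examined as a Musashi target. Its longest annotated 3′ UTR (1568 nt) holds 7 matches to GTAGT or ATAGT, written as DNA, which are forms of the known Musashi binding sequence, or 4.46 per kb, against a median of 1.10 per kb over 5139 genes. They are shown because Jag1 is the target whose response to 4-OHT was compared between C4 and C1 cells. Musashi proteins were not measured in the libraries used here. Each is a window of 25 nt from the NCBIM37 genome, read on the minus strand of chromosome 2 as in the transcript, with the match in capitals.
Jag1 site 1: cgcggggcttGTAGTttctttaaac
Jag1 site 2: actggcactgGTAGTttctgtggtt
Jag1 site 3: ccttaggatcATAGTtttatttata
Jag1 site 4: tgacgttcgaGTAGTtctgtatttg
Jag1 site 5: gaatttttgtATAGTtatgtaaata
Jag1 site 6: aaggtttttgATAGTgttgtaagca
Jag1 site 7: gtgtttggaaATAGTttctcttgaa
The first lies at chr2:136908695-136908719 and the last at chr2:136907952-136907976, both in the 3′ UTR of transcript ENSMUST00000028735.7. The capitals mark letters found by a search, and binding was not measured in the libraries used here. The study itself reported binding of recombinant MSI1 to parts of this 3′ UTR, and raised JAG1 protein in double knockout cells. It also reported that Jag1 mRNA rose about 1.5-fold in these cells, with a footprint rise of similar size. Whether the change in Cre-less cells was subtracted there is not stated.

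Jag1 mRNA was at 40.1 CPM in C1 cells without and 55.0 CPM with 4-OHT, and at 56.8 and 89.0 CPM in C4 cells. It was thus higher with 4-OHT in both lines, by 0.45 and 0.66 log2 units, and the difference of 0.20 (interval 0.10 to 0.31) was 1.15-fold. Footprints gave 333 and 131 reads in C1 cells and 100 and 146 reads in C4 cells (52.2, 57.3, 53.6 and 87.2 CPM). The first 3 libraries lay close together and treated C4 cells above them, a difference of 0.56 (interval 0.10 to 1.03), or 1.48-fold. Jag1 was not C4-specific in either assay, since neither difference reached its limit, and its TE differed by 0.36. The C4 pair taken alone, without the control for 4-OHT, gave 0.66 in mRNA and 0.83 in footprints.

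The other genes that the study names in NSCs were not C4-specific either. Numb mRNA was at 36.6, 35.2, 35.0 and 32.0 CPM, a difference of -0.06 (interval -0.19 to 0.07), and its footprints (2 to 20 reads) were under the filter. The splicing factors Prpf3 and Rbm22 differed by 0.09 and -0.08 in mRNA and by -0.10 and -0.28 in footprints. The helicase Dhx37 differed by -0.01 and -0.27, and the adhesion protein Kirrel3 by 0.10 and -0.58. With Msi1 overexpressed, the study reported raised translation of Prpf3 and Kirrel3 and lowered translation of Rbm22 and Dhx37. Kirrel3 was lower here in footprints (interval -1.05 to -0.11) and TE (-0.68, interval -1.2 to -0.16), both under the 2-fold limit. The TE of Prpf3, Rbm22 and Dhx37 differed by -0.19, -0.19 and -0.25, with intervals that held 0.

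Of 24 Notch ligands, receptors and processing genes tested in mRNA, 0 were C4-specific and higher and 2 lower, against 1.04% and 1.52% of all genes, with a median difference of -0.01 (0.00 over all genes). The members that fell were Dlk1 (42.0 to 18.8 CPM in C4 cells, 29.4 and 26.3 CPM in C1 cells, difference -0.97) and Dlk2 (3.89 to 1.71 CPM, -0.86), membrane proteins related to the Notch ligands but without their receptor-binding domain. The receptors Notch1, Notch2 and Notch3 differed by 0.03, -0.12 and 0.17. The ligands Dll1 and Jag2 differed by -0.02 and -0.25, and Lfng, which modifies Notch receptors, by 0.37.

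Among 10 Notch target genes, Nrarp, a feedback inhibitor of Notch, rose (7.63 and 7.64 CPM in C1 cells, 6.29 and 12.54 CPM in C4 cells, difference 0.95, interval 0.69 to 1.21), and Gfap fell. The treated C4 library of Nrarp stood apart from the other 3. The transcriptional repressors Hes5, Hes1 and Hey1 differed by 0.47, -0.20 and -0.04, so the targets did not share a direction, and their median was 0.01.

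Cell division genes were higher with 4-OHT in both lines and more so in C4 cells. Over 32 mitosis and G2/M genes the median change in mRNA was 1.03 in C4 and 0.63 in C1 cells, with 29 and 20 genes past 1.5-fold. The difference had a median of 0.37 and was above 0 in 30 of the 32, and 5 passed the limits, but Cdc20 alone was C4-specific (12 to 26.4 CPM, against 17.5 and 25.5 CPM in C1 cells, 0.59, or 0.54 and not called with 2 CPM added). Cdc20 activates the anaphase-promoting complex. The treated levels of both lines were close, and untreated C4 cells were the low library. Aurka, a kinase of the spindle, and Mad2l1, a checkpoint protein, were C4-specific in footprints (1.13 each). The 34 DNA replication and G1/S genes had a median difference of 0.17, with medians of 0.56 in C4 and 0.36 in C1 cells, and Ccne1, cyclin E1, rose (0.67).

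In signalling lists 0 to 2 members each way were C4-specific in mRNA, against 1.04% higher and 1.52% lower over all genes. In the Wnt list (27 tested) the receptor Fzd9 rose from 92.3 to 150 CPM in C4 cells against 98.7 and 93.7 CPM in C1 cells (0.78), and so did Sfrp2, a secreted Wnt modulator (0.71). In the TGF-beta and BMP list (27 tested) Smad6, an inhibitory Smad, was 1 of 2 members that fell (-0.99). The Hedgehog list (9 tested) had Shh, the ligand, at 2.16 and 3.13 CPM in C1 cells and at 1.53 and 0.839 CPM in C4 cells (-1.04), and, in footprints, Sufu, a repressor of the pathway (1.76). Shh and Smad6 were not called on RPKM or with 2 CPM added. Medians of these lists were 0.00, -0.04 and 0.03. Of 22 immediate early genes, Ier3 rose (0.62) and Klf4 fell (-0.90), with a median of -0.13. Among 25 EGF and FGF receptors with their feedback genes 0 were C4-specific.

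Matrix genes moved both ways: of 50 tested, Fbln2 (0.85) and Eln, elastin (0.60), rose, and Thbs1 (-0.96), Timp3 (-0.88), Col12a1 (-0.86) and Tnr (-0.70) fell, with a median of -0.02. Over all genes 1.04% rose and 1.52% fell. Col12a1, a collagen, was at 183, 128, 284 and 109 CPM, and Fbln2, a glycoprotein of elastic fibres, at 445, 558, 152 and 342 CPM. Fbln2 stayed below its C1 level after the rise. Axon guidance (56 tested) had Slit1 higher (0.72) and Sema3e (-1.08) and Epha2 (-0.59) lower.

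Of 49 ion channels and transmitter receptors, the glutamate receptors Grm5 (0.93) and Grm3 (0.80) and the potassium channel Kcnn2 (0.72) rose, and Gabra2, a subunit of the GABA-A receptor, fell (-1.30), so 3 rose and 1 fell, beside 1.04% and 1.52% of all genes. Grm5 was at 27.5 and 39.2 CPM in C1 cells and at 34.2 and 92.5 CPM in C4 cells. Gabra2 was at 7.48 and 8.67 CPM in C1 cells and at 6.80 and 2.88 CPM in C4 cells. In each, treated C4 cells stood outside the range of the other libraries.

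Greb1, a gene that estrogen receptor raises in other tissues, was the single C4-specific member of 9 estrogen response genes (4.04, 2.98, 2.56 and 4.12 CPM, 0.99). Its treated C4 level was that of untreated C1 cells, and on RPKM (0.35) it was not called. Beside the counts of C4-specific members in this paragraph stand 1.04% higher and 1.52% lower over all genes, whose median difference was 0.00. Of 12 interferon response genes, Tap1, a peptide transporter of antigen presentation, rose (0.72), the median was 0.37 and 9 of the 12 were above 0. Their median change was 0.17 in C4 and -0.12 in C1 cells, so the control line moved the other way. Of the 12, 1 was past 1.5-fold upward in C4 cells. The 19 intermediate progenitor and neuronal genes had a median of -0.31, with 14 below 0 and Dlx1 (-0.63) C4-specific. Of 28 chaperones 25 were below 0 (median -0.13), Hspb8 alone C4-specific. Gfap was the only C4-specific mRNA of 18 astrocyte genes (median -0.06) and Loxl2 of 19 mesenchymal genes (0.02). In glycolysis and hypoxia genes (25 tested, median 0.15) Eno2, the neuronal enolase, fell (-0.91).

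**Figure D3:**
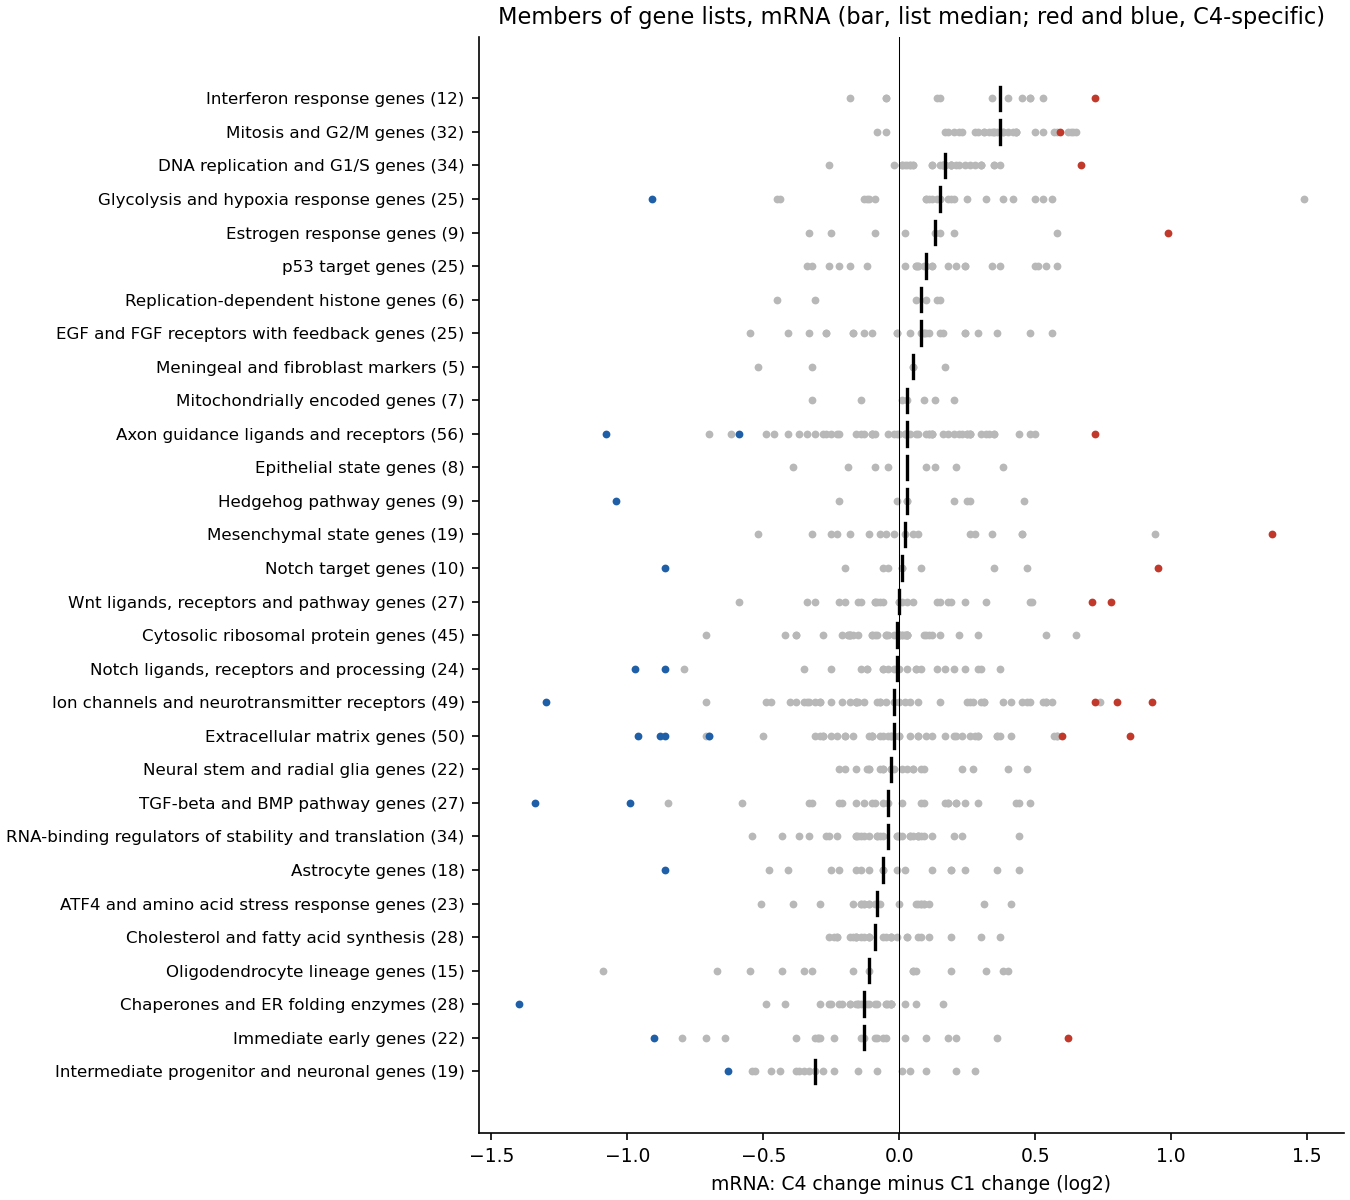
Difference between lines in mRNA (log2, C4 change minus C1 change) for the members of each gene list tested, with the number tested in brackets. Each point is a gene, red or blue where it was C4-specific, and the bar is the list's median; the interferon and mitosis lists have the highest medians (0.37) and the neuronal list the lowest (-0.31), and most points are grey and near 0.

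Several lists had 0 C4-specific mRNAs, which in lists of this size is near the share over all genes (1.04% higher and 1.52% lower): 22 neural stem and radial glia genes (median -0.03), 34 RNA-binding regulators (-0.04), 23 ATF4 targets (-0.08), 25 p53 targets (0.10), 28 genes of cholesterol and fatty acid synthesis (-0.09), 45 cytosolic ribosomal protein genes (-0.01), 15 oligodendrocyte lineage genes (-0.11), 8 epithelial genes (0.03), 7 mitochondrially encoded genes (0.03) and 6 histone genes (0.08). In footprints the mitochondrially encoded genes differed between lines through C1 cells. All 13 were past 1.5-fold in C1 cells, with a median change of 1.87, against 0.45 in C4 cells. Of them 11 had a difference past the limit and 0 were C4-specific. Footprints of 65 histone genes were higher in both lines (medians 1.09 in C1 and 1.15 in C4 cells), and 0 were C4-specific. List members C4-specific in footprints and not in mRNA included Tnfrsf10b, a death receptor (1.37), Gja1, connexin 43 (-1.06), and Adamts1, a matrix protease (-1.03), besides Rbfox2, Fosl1, Sufu, Aurka and Mad2l1. The mRNA difference of Gja1 was -0.22. Fosl1 mRNA was lower with 4-OHT in both lines (-0.83 in C1 and -1.54 in C4 cells). Its difference of -0.71 passed the limits, but the C1 change kept it from being C4-specific. Pole, a replicative polymerase subunit, was C4-specific in footprints (1.39), and its mRNA was not analysed here. On the deposited RPKM, Tnfrsf10b, Gja1, Adamts1, Pole and Aurka were under the limit (0.95, -0.98, -0.86, 0.72 and 0.67).

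Defining markers of NSCs were present in all 4 libraries, Sox2 at 177 to 205 RPKM and Nes at 150 to 163 RPKM. Sox2, Nes, Fabp7, Vim and Slc1a3 together had 13200 to 13910 CPM, with the lowest value in treated C4 cells. Astrocyte markers (Gfap, Aqp4, S100b and Aldh1l1) summed to 1268 and 1124 CPM in C1 and 1399 and 1130 CPM in C4 cells. Neuronal markers (Dcx, Tubb3 and Stmn2) summed to 31.2 and 29.5 CPM in C1 and 39.6 and 29.1 CPM in C4 cells, beside the negative median of the neuronal list, and their part in it was not tested. Fibroblast markers were low but unequal between the lines, at 1.72 and 1.47 CPM in C1 and 8.13 and 5.44 CPM in C4 cells. Their part in the matrix results was not tested. Oligodendrocyte lineage markers (Olig1, Sox10 and Pdgfra) summed to 1098 and 1299 CPM in C1 and 898 and 1161 CPM in C4 cells. Endothelial markers summed to 1.75 to 2.62 CPM. Microglial markers were at or near 0 (3 of 4 at 0 in all libraries, sums up to 0.188 CPM) and erythroid ones likewise (2 of 4, up to 0.131 CPM). Pax6, Map2 and Mbp were not analysed here. In cell populations sequenced as a whole, fewer cells of a type and less RNA per cell cannot be told apart.

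The lines also differed before treatment. Untreated C4 cells were at least 1.5-fold above untreated C1 cells in 210 of the 11551 mRNAs (1.82%) and below in 347 (3%). Of the 120 C4-specific rises 30 (25%) were among those below, and of the 175 falls 47 (26.9%) were among those above. After treatment, 78 of the 120 and 96 of the 175 lay within 1.5-fold of treated C1 cells. These values use the same libraries as the choice of genes, so they describe the calls and are not independent of them. For Msi2, Vgf and Loxl2 the untreated lines were within 0.33 log2 units of each other, and the treated ones differed by -3.51, -1.01 and 1.61. Of the 68 footprint rises, 17 (25%) started at least 2-fold below C1 cells, and of the 66 falls 7 (10.6%) started above. Over all 5875 genes tested in footprints, 121 (2.06%) started below and 187 (3.18%) above.

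The mRNA and footprint values came from separate libraries and measure different quantities. Over 5220 genes the differences had a Pearson r of 0.187 across genes, which are not replicates, and 54.8% had the same sign. With Msi1 and Msi2 left out, 24 genes with C4-specific rises in mRNA were measured in footprints, and 18 (75.0%) were above 0 there, with a median of 0.61. Of 31 falls 28 (90.3%) were below 0, with a median of -0.89. Among genes chosen in footprints, the mRNA differences were closer to 0. Of 63 rises 42 (66.7%) were above 0 in mRNA with a median of 0.12, and of 57 falls 37 (64.9%) were below 0 with a median of -0.13.

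**Figure D4:**
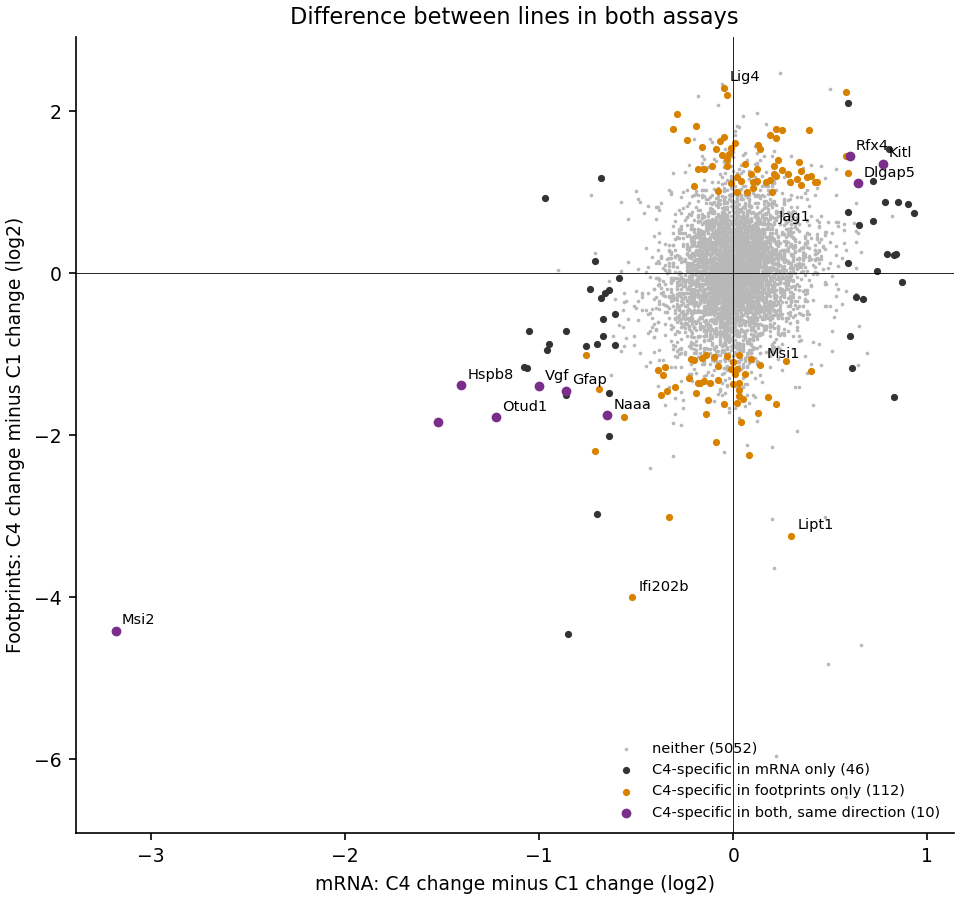
Difference between lines (log2, C4 change minus C1 change) in footprints against that in mRNA for 5220 genes tested in both. Purple points are the 10 genes C4-specific in both assays in the same direction, black points those C4-specific in mRNA only and orange points in footprints only; the orange points spread along the vertical axis with mRNA differences near 0, and Msi2 lies at the lower left (-3.18 and -4.41).

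The opposite manipulation was measured in other cells of the series, E12.5 lines in which doxycycline turns on Msi1 or Msi2, with the KH2 line as the control for the drug. These cells were sampled at 72 h with 1 µg/ml doxycycline, against 48 h of 4-OHT in the floxed lines. There the Msi1 line had an Msi1 difference of 2.47 and the Msi2 line an Msi2 difference of 2.29. In the Msi1 line, however, Msi2 was lower (-0.75, interval -1.1 to -0.4), which is the direction of the knockout. For Msi2 that line was thus not the opposite manipulation. Msi1 differed by 0.23 (interval 0.02 to 0.43) in the Msi2 line. Knockout and induction differences had opposite signs in 53.4% of 11049 genes for Msi1 (r -0.078) and in 51.0% of 11005 for Msi2 (r -0.03). Of the C4-specific rises 56 of 112 (50%) and 56 of 111 (50.5%) had the opposite sign on induction of Msi1 and Msi2, and of the falls 50 of 94 (53.2%) and 40 of 92 (43.5%). Both lines share the KH2 libraries, so they are not set against each other. Jag1 mRNA differed by 0.25 (interval -0.07 to 0.56) with Msi1 and by 0.01 (interval -0.26 to 0.29) with Msi2.

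Most C4-specific mRNAs had an induction interval that held 0. With Msi1, 21 of the 112 rises had the same sign with an interval leaving out 0 and 25 the opposite sign, and of the 94 falls 10 and 17. With Msi2 these were 24 and 18 of 111 rises, and 18 and 10 of 92 falls. These counts are not set beside the same counts over all genes. They therefore do not show whether the called genes differ from other genes. The named genes whose intervals left out 0 with each of the lines, taken by their values, went both ways. The same KH2 pair was subtracted from both lines, so the values given for a gene are not independent of each other. Of those with the sign of the knockout, Gabra2 was lower with Msi1 (-1.86) and Msi2 (-1.22), as were Vgf (-0.69 and -0.87), Col12a1 (-0.96 and -0.49), Klf4 (-0.51 and -0.48) and Tnr (-0.29 and -0.78). Thrsp (1.02 and 1.05), Nrarp (0.33 and 0.59), Fzd9 (0.19 and 0.53) and Rfx4 (0.19 and 0.14) were higher. Opposite to the knockout, Loxl2 (-0.39 and -0.45), Frem1 (-0.51 and -0.76) and 4930583H14Rik (-0.59 and -0.34) were lower, and Thbs1 (1.06 and 1.17) and Timp3 (0.66 and 0.25) higher.

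The site that gave the Jag1 windows was also counted in all 3′ UTRs of at least 50 nt. GTAGT or ATAGT, on the transcript strand only, was missing from 33.9% of 10920 UTRs of genes tested in mRNA. The 514 genes in the top 10% for TE (at least 3.21 matches per kb) had a median TE difference of 0.01, and the 1687 genes without a match -0.04. The gap of 0.04 has no test here, and 3 other settings gave gaps of 0.07, 0.10 and 0.08. In mRNA the top 1093 genes had a median of -0.02 and the 3699 without a match 0.01. The genes named for TE were mixed: Lig4, Tbc1d5, Pde6d and Ppt2 held 0 matches, Plekhb1, Lipt1 and Ifi202b held 1, and Frs2, Nhs and B3gnt5 held 6, 7 and 8.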

How the data were processed

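RNA-Seq of polyA-selected RNA and Ribo-Seq of monosome-protected fragments were analysed in C1 and C4 NSCs. For each Ensembl gene the authors deposited raw read counts and RPKM, in RNA-Seq per library and in Ribo-Seq over listed coding exons in 1 table. Per the submitters' processing notes reads were handled with Bowtie and TopHat on mm9, and versions are not given in the sources used here. Counts were turned into CPM on the summed counts, since 1 library per condition allows no count model. RPKM served for markers and, with 0.5 RPKM added, for an alternative. Genes with a mean of at least 1 CPM in mRNA or 20 CPM in footprints were tested, so genes that are low in all libraries are missing. Of 22623 genes in the RNA files and 23081 in the footprint table, 20396 were in both, and 721 symbols came from the reference annotation (NCBIM37), which also gave positions and 3′ UTRs. Intervals (95%) follow from the counts by the delta method. The 0.5 CPM added before the logarithm understates changes of low genes, and 0.5 RPKM does the same for genes with a low RPKM.

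Named genes were Msi1, Msi2, Jag1 and those the study names, the 12 largest C4-specific rises and 12 falls in mRNA, 8 each in footprints and 5 each in TE, those C4-specific in both assays (up to 10 each way), and C4-specific members of the 33 gene lists. Notch, Hes and other members given by values were chosen after they were seen. The members and lists were chosen with earlier results of these data known. The technical replicates of tetO-Msi1 cells served for scale only. Alternatives were other scalings (TMM of edgeR 4.0.16, size factors of DESeq2 1.42.0), pseudocounts, filters and limits, RPKM, the C4 pair alone, and treated C4 against treated C1 cells. The steps were tested on simulated data. Splicing was not analysed here, and some genes that the rule names are not reported here. Python 3.11.15, numpy 2.4.6, pandas 2.3.3, matplotlib 3.10.9 and R 4.3.3 were used.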

Additional observations from a re-analysis of the deposited data

Results flagged for a closer look

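For 15 values of named genes the lines moved in opposite directions with 4-OHT, each by at least 0.32 on the log2 scale and past its counting interval. With 1 library per condition the difference between lines was not tested in any of them. In mRNA, Msi2 moved by 0.35 in C1 and -2.83 in C4 cells (difference -3.18), and in footprints by 0.37 and -4.04 (-4.41). Hapln3 mRNA moved by -0.46 and 1.18 (1.64), Dcxr by -0.37 and 0.97 (1.34), Frem1 by -0.41 and 0.87 (1.28), Chchd10 by -0.50 and 0.66 (1.16) and Greb1 by -0.38 and 0.61 (0.99). The mRNAs of Nos3 (0.36 and -0.99, difference -1.36) and Shh (0.45 and -0.59, difference -1.04) went the other way.

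In footprints, B3gnt5 moved by -0.67 in C1 and 1.80 in C4 cells (2.47), Plekhb1 by -0.50 and 1.47 (1.96) and Grm3 by -0.79 and 0.74 (1.53). Zdhhc18 (0.47 and -2.54, difference -3.01), Ppt2 (0.52 and -1.72, -2.24) and Gfap (0.35 and -1.09, -1.45) fell in C4 cells. Part of each of these differences is the move of the control line.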

How the results depend on the processing

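Scaling by TMM or DESeq2 factors, no centring, and leaving out the condition on the interval kept all 3 counts within 1.5 times the reported value. The count of C4-specific mRNAs (295) was 140 with 2 CPM added, 155 with a filter 5 times stricter, 44 at a fold limit of 2, 801 for the C4 pair alone and 602 for treated C4 against treated C1 cells, which shares 117 of the 295. Footprints (134) gave 67 on RPKM, 1149 with no filter, 4 with the stricter filter, 18 at 3-fold, 358 for C4 alone and 271 for treated cells. TE (101) gave 44, 891, 1, 16, 203 and 187 in the same order, and 67 with a tighter limit on the C1 change. The stricter filter also leaves fewer genes to test, so the footprint and TE calls rest mostly on genes with few reads.

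Without the C1 pair (C4 alone), Jag1 mRNA was 0.66, Msi1 mRNA -0.07 and Msi2 mRNA -2.83. Treated C4 against treated C1 cells gave 0.71, -1.31 and -3.51, and -2.14 for Msi1 footprints. Msi2 mRNA was -3.47 with 0.1 CPM added and -2.49 with 2 CPM. The UTR contrast in TE was 0.07 for the top 25%, 0.10 for UTRs of at least 500 nt and 0.08 for any TAG, and in mRNA -0.02 for the longer UTRs. Of 1184 values of named genes under alternatives, 163 moved beyond their counting interval, 80 of them for treated C4 against treated C1 cells, 46 for C4 alone, 16 on RPKM, 13 with 2 CPM and 8 with 0.1 CPM. Of the calls of named genes, RPKM kept 47 of 59 in mRNA, 23 of 34 in footprints and 8 of 17 in TE, and 2 CPM kept 45, 33 and 16. In mRNA, RPKM lost Dlx1, Eln, Epha2, Frem1, Gbp9, Greb1, Kcnn2, Nos3, Shh, Slit1, Smad6 and Trim71, and 2 CPM lost Cdc20, Chchd10, Dlk2, Dlx1, Eln, Epha2, Greb1, Hapln3, Ier3, Kcnn2, Rfx4, Shh, Smad6 and Trim71. Of the 1184 values 8 reversed, all with treated C4 against treated C1 cells, which start from different levels: Aurka (-0.18), Col12a1 (0.01), Gfap (0.58) and Nhs (0.97) in footprints, Fbln2 (-0.68), Gfap (0.51) and Naaa (0.16) in mRNA, and Nhs in TE (0.67). No replicate could be left out, since each condition had 1 library. No paired analysis was possible because each line has 1 library per treatment and no replicate numbers.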
